A study of Mus musculus with 6 samples.

Results

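The genes of the circadian clock were followed in whole lungs of TNF+ and TNF- mice by bulk RNA-sequencing. The 10 genes were chosen by symbol from the 49568 gene symbols of the count table and were Arntl, Clock, Npas2, Per1, Per2, Per3, Cry1, Nr1d1, Nr1d2 and Dbp. All 10 had a row in the table and all 10 passed the filter on low counts. Lungs came from 3 TNF+ mice, which carry a human TNF transgene (TNF-Tg), and 3 TNF- mice, their wildtype (WT) littermates, all female, on a C57BL/6 background and 4 months old. One library was made per mouse. In this line TNF is overexpressed for life and the mice develop both arthritis and pulmonary vascular disease. The time of day at which the lungs were taken is not given in the sources used here.

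The mammalian clock is a feedback loop of transcription that runs in nearly every cell, the lung included. ARNTL (also called BMAL1) pairs with CLOCK or NPAS2 and switches on genes that carry an E-box, among them the Period (Per), Cryptochrome (Cry), Nr1d and Dbp genes, and the PER and CRY proteins then shut the pair off. Another loop runs through the nuclear receptors REV-ERB alpha and beta, encoded by Nr1d1 and Nr1d2, which repress Arntl. DBP and its relatives TEF and HLF carry the rhythm to output genes through another element, the D-box, where NFIL3 competes with them as a repressor. The mRNAs of Arntl and of Nr1d1, Per and Dbp therefore normally peak at opposite times of the day.

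The libraries held between 25396923 and 32529408 counts per lung, all TNF+ totals lying under the TNF- totals. Of 19199 genes tested, 47.4% had an adjusted p under 0.05 between the genotypes, 24.0% higher and 23.4% lower in TNF+ lungs. The table lists mouse genes, so the human transgene was not measured as such, and the mouse Tnf row had 106, 213 and 405 counts in TNF+ and 16, 14 and 35 in TNF- lungs. The surfactant gene Sftpc, a marker of the labelled tissue, had between 287103 and 514546 normalized counts in each lung. Markers of several cell types differed between the genotypes. The summed normalized counts of 8 leukocyte markers ranged from 229829 to 257861 in TNF+ and from 85648 to 87615 in TNF- lungs, 6 of the 8 passing the test as higher and Gzma as lower. Most of this sum came from Lyz2 alone, with 189362 to 219728 in TNF+ and 76933 to 78754 in TNF- lungs. The summed normalized counts of 6 endothelial markers ranged from 40569 to 47907 against 79434 to 94416, with all 6 lower. The 8 epithelial markers summed to between 503905 and 659630 against between 1028790 and 1244651, with 7 of the 8 lower, and the 6 mesenchymal markers to between 39287 and 40302 against between 59146 and 88326, with 5 of the 6 lower. Most of the epithelial sum came from Sftpc, which did not pass the test, and Scgb1a1. The 5 erythroid markers, all lower, summed to between 246814 and 361816 against between 1013208 and 1845222. No marker of these lists was at 0 in any lung. The 5 fat markers summed to 1278, 1547 and 2649 in TNF+ and 1856, 1344 and 3008 in TNF- lungs, and the groups overlapped. Adipoq had 17.1, 12.4 and 327 normalized counts in TNF+ and 319, 227 and 584 in TNF- lungs, whereas Fabp4, which made up most of the sum in TNF+ lungs, had 1152, 1442 and 1727.5 against 672, 460.0 and 1223, and neither passed the test. Of 4 fat markers tested, Cidec passed as lower (log2 fold change -1.82, adjusted p = 0.0252), and Lep, at 0 in TNF+ lung 1, was not tested. Fewer cells of a type and less RNA per cell cannot be told apart in whole tissue, and the part of these shifts in the results on clock genes was not tested. A pair of libraries stood apart. In TNF+ lung 1 the gene Gm42418 took 5.22% of the counts, against 0.0774% to 0.274% elsewhere, and TNF- lung 1 held squamous epithelial genes, with a marker sum of 103546 normalized counts against 301 to 937 in the other lungs, and skeletal muscle genes, with 55405 against 421 to 1226. With both of these lungs left out, 6 of the 10 clock genes were called in place of 7, Cry1 (adjusted p = 0.0764) being the one lost. Of all genes, 6064 were then called in place of 9096.

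The DNA just before the start sites of 4 of the 10 genes and of Ciart is shown because matches to elements of the loop were found there. RefSeq promoter windows (build GRCm38.p6) were found for 9 of the 10 genes, 13 windows in all, and not for Per2. In the 250 bases before each start, 4 sets of letters were searched on both strands, the E-box CACGTG, its variant CACGTT, the D-box as TTATGTAA or TTACGTAA, and the RRE, the element of REV-ERB and ROR receptors. In the lines that follow, capitals mark the matches in the reading direction of the gene, so that CACGTT on the other strand reads AACGTG, and bases in an annotated exon were left out. No match was found for Arntl, Clock, Npas2, Nr1d2 and Dbp. The windows shown are the matching one for each of the other 4 clock genes, and that of Ciart, a repressor of the loop outside the 10 whose fall was the largest among the other loop genes.
Nr1d1, chr11:98775378-98775627, minus strand: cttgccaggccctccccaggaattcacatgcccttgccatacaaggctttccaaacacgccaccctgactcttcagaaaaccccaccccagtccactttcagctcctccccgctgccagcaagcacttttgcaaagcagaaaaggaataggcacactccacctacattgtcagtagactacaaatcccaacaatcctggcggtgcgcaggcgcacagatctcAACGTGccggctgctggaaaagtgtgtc
Per1, chr11:69098699-69098947, plus strand: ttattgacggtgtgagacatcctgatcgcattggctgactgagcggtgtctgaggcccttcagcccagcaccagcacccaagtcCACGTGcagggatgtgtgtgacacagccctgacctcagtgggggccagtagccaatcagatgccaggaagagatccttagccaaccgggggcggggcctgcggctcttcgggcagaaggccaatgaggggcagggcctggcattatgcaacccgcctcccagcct
Per3, chr4:151044666-151044915, minus strand: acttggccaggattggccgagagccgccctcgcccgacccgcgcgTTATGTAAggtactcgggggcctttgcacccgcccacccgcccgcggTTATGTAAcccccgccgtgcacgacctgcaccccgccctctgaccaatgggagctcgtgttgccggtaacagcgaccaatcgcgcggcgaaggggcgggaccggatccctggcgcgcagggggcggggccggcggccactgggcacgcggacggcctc
Cry1, chr10:85185065-85185304, minus strand: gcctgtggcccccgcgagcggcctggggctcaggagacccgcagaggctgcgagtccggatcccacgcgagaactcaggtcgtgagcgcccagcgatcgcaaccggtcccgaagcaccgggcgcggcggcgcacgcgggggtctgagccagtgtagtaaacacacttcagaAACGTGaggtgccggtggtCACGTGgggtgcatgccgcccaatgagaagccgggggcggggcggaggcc
Ciart, chr3:95882252-95882478, minus strand: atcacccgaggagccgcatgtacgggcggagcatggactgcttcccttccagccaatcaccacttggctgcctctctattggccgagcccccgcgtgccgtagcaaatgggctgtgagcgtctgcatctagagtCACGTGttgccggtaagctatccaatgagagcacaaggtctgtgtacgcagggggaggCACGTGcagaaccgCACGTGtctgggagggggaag
CACGTG stood in 2 of the 13 windows, 1 of the 2 of Per1 (166 bases before the start) and that of Cry1 (60 bases before), against 6.02% of all 32851 promoter windows of this length. CACGTT was in 2 of the 13 windows, of Cry1 and Nr1d1, 79 and 28 bases before the start (3.85% of all windows). The D-box TTATGTAA occurred 2 times in Per3, 205 and 158 bases before the start (0.819% of all windows), and TTACGTAA in none of the 9 genes (0.113% of all windows). No RRE was found in these windows (0.332% of all windows). The window of Ciart held 3 copies of CACGTG, 116, 58 and 44 bases before the start. Of the 11 other loop genes with a window, 4 held CACGTG, of which Ciart and Tef were called lower in TNF+ lungs and Bhlhe41 and Cipc were not called. These matches describe the letters in a short window only, and elements farther from the start were not searched.

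Between TNF+ and TNF- lungs, 7 of the 10 clock genes passed the test, 6 lower (Nr1d1, Dbp, Per2, Per3, Nr1d2 and Per1) and 1 higher (Cry1) in TNF+ lungs, where 47.4% of all genes tested passed, 23.4% lower and 24.0% higher. The 3 genes that did not pass were those of the activators, Arntl, Clock and Npas2. The median log2 fold change of the 10 was -0.53, against 0.03 over all genes tested. In 8 of the 10 the normalized counts of the groups did not overlap, where this held for 58.7% of all genes tested. Nr1d1 and Dbp were also past a minimum absolute log2 fold change of 1, that is 2 of the 10 genes against 22.5% of all genes tested. The 5 genes with the smallest adjusted p, Nr1d1, Dbp, Nr1d2, Per3 and Per2, passed in each of the 15 alternative analyses, whereas the calls of Per1 and Cry1 depended on single lungs.

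**Figure D1:**
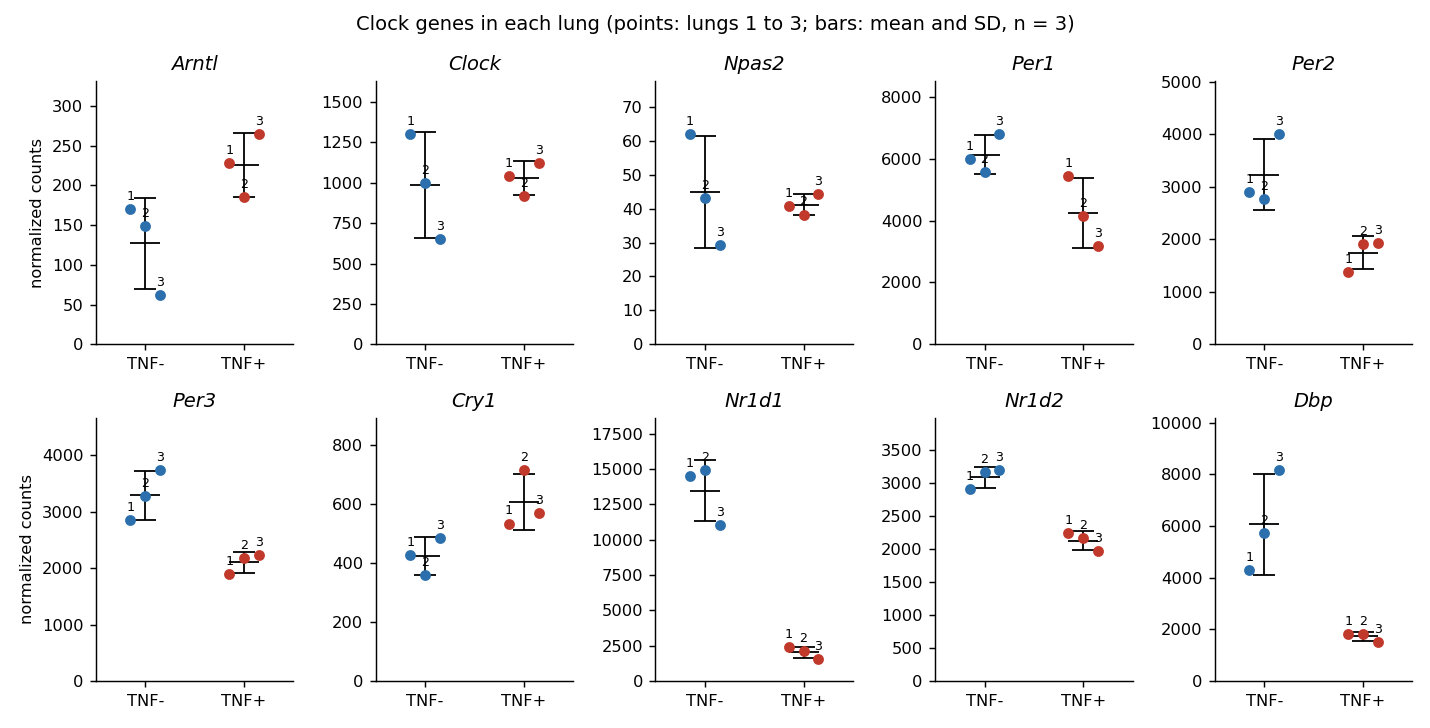
Normalized counts (vertical axes, each from 0) of the 10 clock genes in the 3 TNF- and 3 TNF+ lungs; points are lungs with their numbers, and bars give the mean and SD (n = 3). The 3 TNF+ lungs lie below all TNF- lungs for Nr1d1 (1555 to 2375 against 11019 to 14914), while for Clock and Npas2 the groups overlap.

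Nr1d1 encodes REV-ERB alpha, the receptor that represses Arntl (ENSMUSG00000020889.11, chromosome 11 of mm10, 98767932 to 98775333, minus strand). Its normalized counts were 2375, 2118 and 1555 in TNF+ lungs and 14514, 14914 and 11019 in TNF- lungs. The groups were far apart, with the highest TNF+ lung well under the lowest TNF- lung. Nr1d1 fell by 2.74 on the log2 scale (standard error 0.19, adjusted p = 2.67e-05), that is, it was 6.69-fold lower, from 13482 ± 2143 (SD, n = 3) to 2016 ± 419 (SD, n = 3). This was the largest change of the 10 genes, and it stayed between -2.91 and -2.60 on the log2 scale whichever lung was left out. Exons of Nr1d1 overlap Thra, the thyroid hormone receptor alpha gene on the opposite strand, in 263 bases or 8.55% of the exon sequence of Nr1d1. The libraries were made with a kit that marks strand, but whether the counting used strand is not given in the sources used here, so reads of the shared part cannot be assigned with certainty. Thra was itself lower in the TNF+ group (1624, 1854 and 1598 against 3813, 4157 and 3390 normalized counts, log2 fold change -1.16, adjusted p = 0.000112). Within a lung, the ratio of Nr1d1 to Thra counts was 1.46, 1.14 and 0.973 in TNF+ lungs against 3.81, 3.59 and 3.25 in TNF- lungs.

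Nr1d2 encodes the paralog REV-ERB beta (ENSMUSG00000021775.11, chromosome 14, 18204054 to 18239127, minus strand). It had 2252, 2168 and 1972 normalized counts in TNF+ and 2913, 3167 and 3198 in TNF- lungs. Every TNF+ lung was below every TNF- lung, but the distance was small. Nr1d2 fell by 0.54 on the log2 scale (standard error 0.09, adjusted p = 0.00217), a 1.45-fold lower level. The paralogs thus moved in the same direction by unequal amounts, and TNF- lungs had 4.98, 4.71 and 3.45 counts of Nr1d1 for each count of Nr1d2, where TNF+ lungs had 1.05, 0.977 and 0.788.

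Dbp encodes a transcription factor of the D-box and is among the genes with the widest daily swing in many tissues (ENSMUSG00000059824.12, chromosome 7, 45705088 to 45710203, plus strand). Its normalized counts were 1826, 1835 and 1517 in TNF+ lungs and 4309, 5720 and 8156 in TNF- lungs. The TNF+ lungs were close to each other, whereas the TNF- lungs spread widely, with lung 3 highest. Dbp fell by 1.81 on the log2 scale (standard error 0.22, adjusted p = 0.000366), a 3.51-fold lower level, and leaving out single lungs gave log2 fold changes between -2.03 and -1.55. Of the exon sequence of Dbp, 18.0% (539 bases) overlaps Sphk2 on the opposite strand. Sphk2, a sphingosine kinase gene, had 1507, 1435 and 1485 normalized counts in TNF+ and 1389, 1301 and 1233 in TNF- lungs and did not pass the test (log2 fold change 0.17, adjusted p = 0.131). The ratio of Dbp to Sphk2 counts was 1.21, 1.28 and 1.02 in TNF+ lungs and 3.10, 4.40 and 6.61 in TNF- lungs.

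The 3 Period genes encode the proteins that carry the inhibition of CLOCK and ARNTL. Per2 (ENSMUSG00000055866.9, chromosome 1, 91415982 to 91459324, minus strand) had 1379, 1912 and 1930.5 normalized counts in TNF+ and 2909.8, 2775 and 4013 in TNF- lungs. It fell by 0.89 on the log2 scale (standard error 0.18, adjusted p = 0.00462). Per3 (ENSMUSG00000028957.12, chromosome 4, 151003652 to 151044665, minus strand) had 1895, 2181 and 2225 against 2861, 3277 and 3733. It fell by 0.65 (standard error 0.12, adjusted p = 0.00327). For both genes the groups did not overlap, and TNF- lung 3 was the highest of all lungs.

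Per1, which also responds directly to glucocorticoids and other acute signals, had the largest adjusted p of the clock genes called (ENSMUSG00000020893.17, chromosome 11, 69095217 to 69109960, plus strand). It was called in 9 of the 15 alternatives, and Cry1 in 8. Normalized counts of Per1 were 5451, 4151 and 3194 in TNF+ and 5996, 5587 and 6822 in TNF- lungs. The groups were separated by little, since TNF+ lung 1 came close to TNF- lung 2. Per1 fell by 0.52 on the log2 scale (standard error 0.19, adjusted p = 0.0489). The call held without TNF+ lung 1 (log2 fold change -0.78, adjusted p = 0.00809) and was lost without any other single lung, with adjusted p of 0.125 and 0.106 without TNF+ lung 2 and 3 and of 0.0727, 0.072 and 0.111 without TNF- lung 1, 2 and 3.

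Cry1 encodes a strong repressor of the loop and was the only one of the 10 genes called higher (ENSMUSG00000020038.10, chromosome 10, 85131700 to 85185064, minus strand). It had 533, 713 and 569 normalized counts in TNF+ and 426, 357 and 485 in TNF- lungs. All TNF+ lungs were above all TNF- lungs, with TNF+ lung 2 highest. Cry1 rose by 0.52 on the log2 scale (standard error 0.16, adjusted p = 0.0296), that is 1.43-fold. This call was lost without TNF+ lung 2 (adjusted p = 0.114), TNF+ lung 3 (0.0585), TNF- lung 1 (0.0784) or TNF- lung 2 (0.105). Within a lung, there were 2.59, 2.68 and 3.39 counts of Per2 for each count of Cry1 in TNF+ lungs and 6.83, 7.76 and 8.27 in TNF- lungs.

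Of the activator genes, Arntl had the largest estimate (ENSMUSG00000055116.8, chromosome 7, 113207465 to 113314126, plus strand). Its normalized counts were 228, 185 and 265 in TNF+ lungs and 170.1, 149.5 and 62.2 in TNF- lungs. The groups did not overlap, but TNF- lung 3 lay far under the other 2 TNF- lungs and widened the spread. The log2 fold change of 0.83 (standard error 0.35, 95% interval 0.04 to 1.63) had an adjusted p of 0.0796. Of the 15 alternatives, DESeq2 and no filter on low counts brought the adjusted p to 0.0312 and 0.0498. Without TNF- lung 3 the log2 fold change was 0.50 (adjusted p = 0.087).

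Clock (ENSMUSG00000029238.11, chromosome 5, 76209868 to 76304792, minus strand) had 1044, 917 and 1123 normalized counts in TNF+ and 1304, 1002 and 653 in TNF- lungs. The TNF+ lungs lay inside the range of the TNF- lungs. The estimate on the log2 scale was 0.06 (95% interval -0.46 to 0.58, adjusted p = 0.844). Npas2 (ENSMUSG00000026077.15, chromosome 1, 39193731 to 39363236, plus strand), the paralog that can stand in for Clock, had the lowest level per length of the 10, with 31, 37 and 47 counts in TNF+ and 65, 45 and 33 in TNF- lungs. For Npas2 the estimate was -0.12 (95% interval -0.84 to 0.60, adjusted p = 0.773). Neither gene passed the test in any of the 15 alternatives. The estimate for Clock turned to -0.02 without TNF+ lung 3 and to -0.17 without TNF- lung 3, and that for Npas2 to 0.16 without TNF- lung 1.

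**Figure D2:**
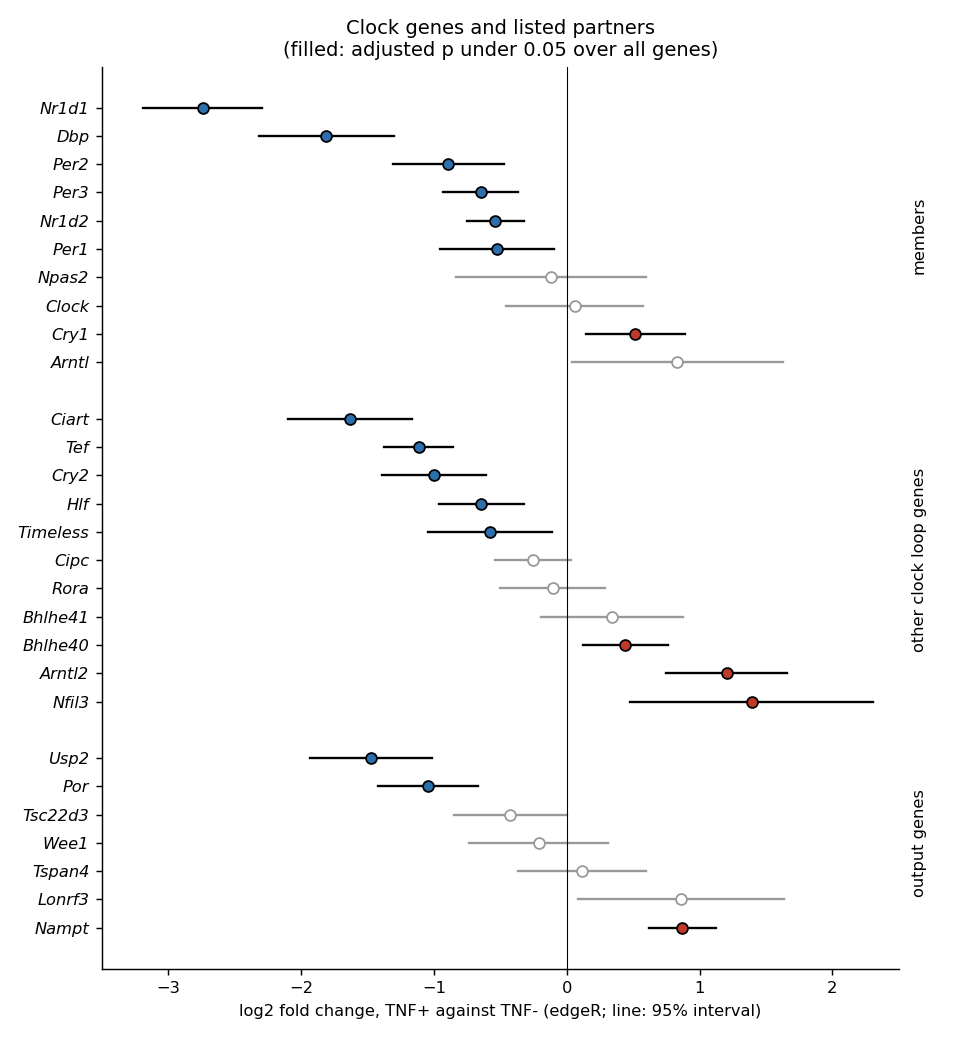
Log2 fold change of TNF+ against TNF- lungs (horizontal axis) for the 10 clock genes, 11 other clock loop genes and 7 output genes, with 95% intervals from edgeR; filled points have an adjusted p under 0.05 over all genes. Nr1d1 (-2.74) and Dbp (-1.81) lie farthest to the left and Nfil3 (1.39) farthest to the right.

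Levels per length were compared as CPM, the share of a library scaled to a common total, per kb of annotated exon, a scale on which genes with long or rarely used exons come out low. In TNF- lungs Nr1d1 was the most abundant of the 10 genes (118 to 160.1 CPM per kb), followed by Dbp (47.5 to 90.0), Per1 (32.8 to 40.0), Nr1d2 (17.8 to 19.5), Per2 (15.6 to 22.6), Per3 (9.83 to 12.8), Cry1 (3.53 to 4.80), Clock (1.57 to 3.14), Arntl (0.273 to 0.747) and Npas2 (0.202 to 0.428). Neighbours in this order overlapped between lungs only for Nr1d2 with Per2 and for Arntl with Npas2. In TNF+ lungs the top of the order was no longer separated, since Per1 (18.7 to 32.0), Nr1d1 (16.7 to 25.5) and Dbp (16.7 to 20.2) overlapped, and further down so did Per3 with Cry1. From Nr1d2 downwards the order of the means was the same in both genotypes.

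**Figure D3:**
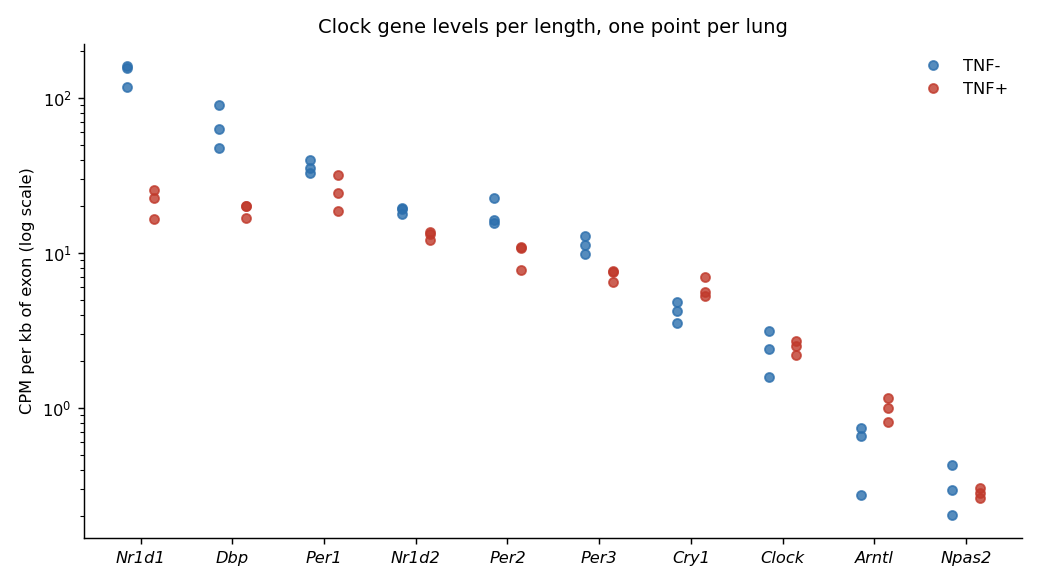
CPM per kb of exon (vertical log axis) of the 10 clock genes, ordered by their mean in TNF- lungs, with one point per lung. Nr1d1 and Dbp lie above the other genes in TNF- lungs and at the level of Per1 in TNF+ lungs, where all 3 lie between 16.7 and 32.0.

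The clock genes also differed among the 3 TNF- lungs. TNF- lung 3 had the highest values of its group for 6 of the 10 genes (Per1, Per2, Per3, Cry1, Nr1d2 and Dbp) and the lowest for the other 4 (Arntl, Clock, Npas2 and Nr1d1). Against the mean of the 3 TNF- lungs on the log2 scale, Arntl stood at -0.91 in that lung and at 0.55 and 0.36 in TNF- lungs 1 and 2, whereas Dbp stood at 0.48 against -0.44 and -0.03. The ratio of Dbp to Arntl counts within a lung ran from 25.3 and 38.3 in TNF- lungs 1 and 2 to 131 in TNF- lung 3. In TNF+ lungs it was 8.01, 9.91 and 5.72, lower than in any TNF- lung. The ratio of Nr1d1 to Arntl was 10.4, 11.4 and 5.86 in TNF+ and 85.3, 99.7 and 177 in TNF- lungs. Ratios within a lung do not depend on the scaling of the library. The part of the time of day in these differences was not tested.

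**Figure D4:**
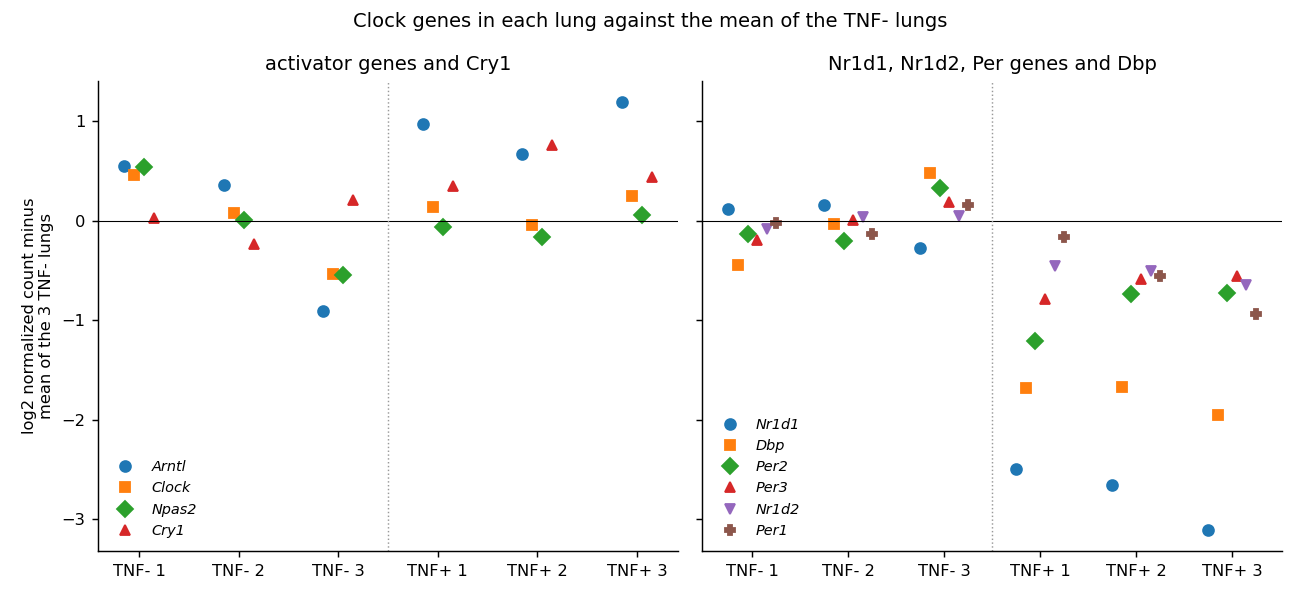
Log2 normalized counts of each lung minus the mean of the 3 TNF- lungs (vertical axis), for the activator genes and Cry1 (left) and for the Nr1d, Per and Dbp genes (right). In TNF- lung 3 Arntl (-0.91) and Dbp (0.48) depart in opposite directions, and in all TNF+ lungs Nr1d1 lies between -2.49 and -3.10.

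Of 13 other genes, listed here as transcription factors and repressors of the loop, 12 were tested and 8 passed. In TNF+ lungs 5 were lower and 3 higher (median log2 fold change of the 12 -0.20), beside 47.4% called among all genes, 23.4% lower and 24.0% higher. Rorb, with 2 to 16 counts per lung, did not pass the filter. The relatives of Dbp fell with it. Tef had 4914, 5671 and 5113 normalized counts in TNF+ and 10649, 10942 and 12437 in TNF- lungs (-1.12 on the log2 scale, adjusted p = 0.000152), and Hlf had 948, 1134 and 772 against 1458, 1441 and 1559 (log2 fold change -0.64, adjusted p = 0.00634). Nfil3, the repressor at the same D-box, was higher, with 694, 239 and 249 against 158, 139.9 and 150.2 (log2 fold change 1.39, adjusted p = 0.0209). Its level in TNF+ lung 1 was well above that of the other lungs, and without that lung the log2 fold change was 0.67 (adjusted p = 0.0186). The call of Nfil3 was lost without TNF- lung 1 (0.0503) or TNF- lung 2 (0.0698).

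Among the repressors, Ciart, whose product CHRONO acts on the ARNTL complex, had 336, 339 and 389.9 normalized counts in TNF+ and 899, 925 and 1480.4 in TNF- lungs. It fell by 1.63 on the log2 scale (standard error 0.20, adjusted p = 0.000409). Cry2, the other Cryptochrome gene, had 1569, 2142 and 1483 against 3478, 2909.7 and 3999 and fell by 1.00 (adjusted p = 0.00195), opposite in sign to Cry1. Arntl2, a paralog of Arntl, was higher with 145, 147 and 198 against 72.6, 70.9 and 69.3 (log2 fold change 1.20, adjusted p = 0.0016). Bhlhe40, an E-box repressor, was higher by 0.44 (adjusted p = 0.0302) and Timeless was lower (log2 fold change -0.58, adjusted p = 0.0454). Bhlhe40 kept the call only without TNF- lung 3 and Timeless only without TNF+ lung 3 when single lungs were left out. Without TNF- lung 1 or TNF- lung 2, 5 of the 12 genes passed in place of 8, the calls of Nfil3, Bhlhe40 and Timeless being lost. Rora, Bhlhe41 and Cipc did not pass (adjusted p between 0.128 and 0.642). The receptor gene Rora, whose product activates Arntl at the RRE, had a log2 fold change of -0.10.

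Of 7 output genes that follow the clock in many tissues, 3 passed, a share near the 47.4% of all genes tested. Usp2, a ubiquitin protease gene, had 285, 287 and 238 normalized counts in TNF+ and 737, 559 and 954 in TNF- lungs and fell by 1.47 on the log2 scale (adjusted p = 0.000644). Por, the electron donor of cytochrome P450 enzymes, had 6881, 8092 and 5295 against 12730.3, 14572 and 14571 and fell by 1.05 (adjusted p = 0.00128). Nampt, the enzyme that limits NAD salvage and also a cytokine of inflamed tissue, was higher (2375, 2689 and 2172 against 1407, 1353 and 1204, log2 fold change 0.87, adjusted p = 0.000445). Wee1, Tspan4, Tsc22d3 and Lonrf3 did not pass. The median log2 fold change of the 7 genes was -0.21, and with DESeq2 5 of them passed.

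Of 13 genes for kinases and ubiquitin ligases that act on clock proteins, 3 passed, 2 lower and 1 higher, where 47.4% of all genes tested did. Prkaa2, a catalytic subunit of AMPK, fell by 1.02 on the log2 scale (303, 258 and 255 normalized counts against 637, 509.9 and 502, adjusted p = 0.000837), and Btrc, a ligase subunit that marks PER proteins for decay, fell by 0.72 (505, 520.2 and 538 against 849.5, 864 and 867, adjusted p = 0.000557). Of 9 cofactor genes only Kdm5a passed, with an estimate of 0.34 on the log2 scale (adjusted p = 0.0441). Leaving out TNF+ lung 1, TNF+ lung 2 or a TNF- lung ended this call, with adjusted p reaching 0.216.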

How the data were processed

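Bulk RNA-seq libraries from the lungs of 6 different mice, 3 TNF+ and 3 TNF-, were analysed from the deposited table of counts per gene symbol. The authors made these raw counts, which are not normalized, by trimming reads with Trimmomatic (0.36 in the submitters' processing notes), aligning them to GRCm38.p5 (mm10) with STAR 2.5.2b and counting with featureCounts. The libraries were prepared with a stranded kit, while the strand setting and annotation of the counting are not given in the sources used here. Where counting ignored strand, reads of overlapping genes cannot be told apart.

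From the counts, genes with low counts were removed with filterByExpr, libraries were scaled by TMM, and genotypes were compared for all 19199 remaining genes with edgeR 4.0.16 (quasi-likelihood test, two-sided, genotype as the only term) in R 4.3.3. P-values were adjusted over all of these genes by the Benjamini-Hochberg method, and a gene was called where the adjusted p was under 0.05. Standard errors were derived from the fold change and F. Normalized counts are counts scaled to the mean TMM-adjusted library size. Totals were 25396923, 30049463 and 29089661 in TNF+ and 31400978, 32529408 and 32462593 in TNF- lungs. A count of 0 allows up to 3 counts, that is 0.0922 to 0.118 CPM depending on the lung, which covers counting error only. CPM per kb used the TMM-adjusted library size and the union of exons in GENCODE M21 (GRCm38), which also gave the gene positions. Transcripts of the 10 genes were searched on the sense strand only for 100-base windows shared with another gene. Of the windows of Nr1d2, 0.426% were shared, and none of the other genes. This search did not cover sequence shared with genes on the opposite strand, such as that of Nr1d1 with Thra and of Dbp with Sphk2.

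The alternatives were DESeq2 1.42.0, limma-voom (limma 3.58.1), DESeq2 size factors, total counts only, no filter, a minimum of 10 counts per lung, robust dispersion estimates, a replicate block, each lung left out, TNF+ lung 1 and TNF- lung 1 both left out, and, for counts of genes, an absolute change of 1 or more on the log2 scale. The fits were tested on simulated data, where DESeq2 made more false calls than edgeR and limma-voom. After this was seen, the limit set on false calls was kept for edgeR and limma-voom only, so counts of genes called by DESeq2 may include more false calls. The 10 genes and all gene lists were chosen with earlier results of these data known. The text gives all 10 genes, the called genes of the lists of other loop and output genes, and of each further list the 2 called genes with the largest change. Some genes counted in these lists are not reported here by name.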

Additional observations from a re-analysis of the deposited data

How the results depend on the processing

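Of the 10 clock genes, 7 passed in the analysis as reported, 5 to 7 with each lung left out, 6 with TNF+ lung 1 and TNF- lung 1 both left out, 6 with total counts only, 8 with DESeq2 or with no filter, and 2, Nr1d1 and Dbp, where an absolute change of 1 or more on the log2 scale was required. With that requirement 4 of the other loop genes passed in place of 8, 2 of the output genes in place of 3, and 4320 of all genes in place of 9096. With each lung left out, 5 to 7 of the other loop genes, 3 to 4 of the output genes and 7347 to 9164 of all genes passed, and with DESeq2 5 output genes passed. Of all genes, 6064 passed with TNF+ lung 1 and TNF- lung 1 both left out, 8080 with total counts only, 9159 with DESeq2 and 9070 with no filter. The log2 fold change of Clock turned to -0.02 without TNF+ lung 3 and -0.17 without TNF- lung 3, and lay between -0.17 and 0.29 over all lungs left out. That of Npas2 turned to 0.16 without TNF- lung 1, with a range of -0.35 to 0.16 over all lungs left out, and to 0.15 with both lungs 1 left out. The cause of these changes was not tested, except that the fold change minimum removes genes by its construction and leaving out lungs leaves fewer samples.

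Lungs of the 2 genotypes share replicate numbers in the labels, but the numbers do not name litters or days. Deviations of same-numbered lungs from their group means correlated across genes with r = -0.149, -0.00429 and -0.242, so the numbers were not taken as pairs, and no lung correlated best with its own number. With a replicate block 5 clock genes passed in place of 7 (adjusted p of Per1 0.0718 and of Cry1 0.0710), 7 of the other loop genes and 7686 of all genes.

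With 3 lungs per genotype, the estimates for Arntl, Clock and Npas2 have intervals wide enough that a missing call does not show an unchanged level. The low counts of Npas2 (31 to 65 per lung) limit its precision further.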

Other observations

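Genes that respond to glucocorticoids, which also drive Per1, did not move in one direction. Of 12 such genes tested, 9 passed, 4 higher and 5 lower in TNF+ lungs, Per1 among the lower ones, where 47.4% of all genes tested passed. The part of glucocorticoids in the change of Per1 was not tested. Sgk1, a kinase gene, had 9145, 6558 and 6356 normalized counts in TNF+ and 1997, 2338 and 1937 in TNF- lungs, a rise of 1.81 on the log2 scale (edgeR, adjusted p = 7.95e-05). Mt2, a metallothionein gene, was higher by 1.39 (adjusted p = 0.0212), a call lost without TNF+ lung 1 (0.0810), TNF+ lung 2 (0.0563) or TNF- lung 2 (0.0577). Of 8 immediate early genes, which respond quickly to many stimuli, 3 passed, 2 higher and 1 lower, beside 47.4% of all genes tested. Junb had 10827, 4019 and 5220 normalized counts in TNF+ and 1299.6, 1256 and 2118 in TNF- lungs, a rise of 2.10 (adjusted p = 0.00249), and Atf3 was higher by 1.60 (adjusted p = 0.000224). TNF+ lung 1 was the highest TNF+ lung for Junb and Nfil3 and the lowest for Atf3 (572 against 605 and 595 normalized counts). Among the 10 clock genes it was the highest TNF+ lung for 3 (Per1, Nr1d1 and Nr1d2) and the lowest for 3 (Per2, Per3 and Cry1).

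Genes were also ranked by how their log2 CPM followed Dbp or Arntl over the 6 lungs once the genotype means were taken out. These correlations are across 6 lungs with 4 independent values left per gene, over 14985 genes, so values near 1 arise for many genes, and they are given as a description only. Slc1a5, Slc8a2, Mpnd, Gmfg and Adora2a were the most like Dbp (r from 0.9967 to 0.9985). Sh3tc1, Gm10179, Elovl7, Larp1 and Cdc42bpa ran most opposite to Dbp (r from -0.9999 to -0.9971). For Arntl the most alike were Ankrd50, Prkce, Nckap1, Uggt1 and Pik3cb, and the most opposite were Gm4540, Gm10343, Vamp2, Pigr and Gm12854. Among clock genes, Clock (-0.98), Npas2 (-0.98) and Arntl (-0.93) ran opposite to Dbp within the genotypes, and Nr1d1 stood at -0.25. All genes share the library of each lung, and within the TNF- group lungs 1 and 3 lay on opposite sides of the group mean for Dbp (-0.44 and 0.48 on the log2 scale), Clock (0.46 and -0.54), Npas2 (0.54 and -0.55) and Arntl (0.55 and -0.91). TNF- lung 1 is the library with squamous and skeletal muscle genes, and the part of that in these correlations was not tested.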
